A study of Mus musculus with 6 samples.

Results

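The genes described here build the route by which proteins made in the cytosol enter mitochondria. They are the genes whose symbol names a subunit of the translocases of the outer membrane (Tomm) or the inner membrane (Timm), or one of a fixed set of partners: the import motor, the chaperonin of the matrix, the matrix processing peptidase, the outer membrane sorting and assembly machinery and the disulfide relay of the intermembrane space. Pseudogenes were left out, and 41 of the 55364 genes in the table matched. Of these, 40 are protein coding, and the remaining one, *Tomm6os*, is a noncoding transcript opposite to *Tomm6*. A pair of matching genes carries a name that is wider than its function: *Timmdc1* encodes an assembly factor of respiratory complex I, and *Tomm34* encodes a cytosolic co-chaperone.

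RNA-seq was performed on mouse morulae from BDF1 x BDF1 matings by in vitro fertilization, with mothers of 8 to 12 weeks and fathers of 10 to 12 weeks. siRNA was injected into the zygotes, and the embryos were cultured in KSOM until 64 h after insemination. Control KD and *Yy1* KD were each represented by 3 libraries, made from pools of 10 whole embryos, so knockdown was neither confined to a lineage nor read out embryo by embryo. YY1 is a zinc finger transcription factor, and the question was which transcripts differ at the morula stage once it is depleted. The values are TPM, transcripts per 1000000 after division by annotated gene length, so levels can be compared between genes only roughly. Strand was ignored in the counting, and 21 of the 41 genes share exonic sequence with another gene.

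Nearly all mitochondrial proteins are encoded in the nucleus and cross the outer membrane through the TOM complex. Proteins with a cleavable presequence then pass the TIM23 complex and are pulled into the matrix by the motor around the chaperone mtHsp70, which is encoded by *Hspa9*. The presequence is cut off by the matrix processing peptidase, an obligate pair of PMPCA and PMPCB, and many matrix proteins are folded by the chaperonin HSPD1 with its lid HSPE1. Carriers and other membrane proteins take other routes, guided by the small Tim chaperones to TIM22 or to the SAM complex. In the preimplantation embryo mitochondria are inherited from the oocyte, and the embryo depends on their respiration as it approaches the blastocyst stage.

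The libraries held 11.8 to 24.4 M read pairs on genes (M, 1000000), recovered from the steps of the TPM values, and 16696 to 17687 genes at 1 TPM or more. *Yy1* stood at 96.0, 100.2 and 89.8 TPM in control KD and at 8.73, 8.90 and 8.32 TPM in *Yy1* KD, 9.07% of the control level (limma log2 fold change -3.32, SE 0.09, adjusted p = 6.71e-05). Markers of the preimplantation embryo were abundant in every library and summed to 6397.0 to 6823.2 TPM in control KD and 6397.8 to 6888.3 TPM in *Yy1* KD. Of these 9 markers 1 differed: *Tfap2c*, a trophoblast transcription factor, fell by 0.54 on the log2 scale (adjusted p = 0.0174). The 8 cumulus and granulosa cell markers summed to 0.61 to 1.1 TPM in control KD and 0.782 to 2.44 TPM in *Yy1* KD, and *Has2*, *Ptx3*, *Tnfaip6* and *Fshr* were at 0 in all 6 libraries. In pooled embryos, fewer cells of a type and less RNA per cell cannot be told apart. Nothing states that the pools came from separate matings, so p-values measure the spread between these libraries, which may be technical.

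Both subunits of the matrix processing peptidase and one exchange factor of the import motor were downregulated in *Yy1* KD morulae, while none of the other 37 tested genes of the set passed the test. Summed over the 41 genes, import transcripts made up 4056.8 to 4249.0 TPM in control KD and 4098.9 to 4328.4 TPM in *Yy1* KD, so the totals overlapped. *Pmpca* fell to 72.8%, *Pmpcb* to 61.7% and *Grpel2* to 50.3% of the control mean. A gene was tested with limma on log2(TPM + 1) where 3 or more of the 6 libraries reached 1 TPM, and a gene was called at a Benjamini-Hochberg adjusted p under 0.05 over all genes tested. Of the import genes 40 were tested, and 3 were called lower and 0 higher in *Yy1* KD. Over all 17353 genes tested, 4.2% were called lower, 1.92% higher and 6.11% in either direction, beside 7.5% of import genes. Among the 10675 genes with a mean of 5 TPM or more, 11.4% were called, 7.88% lower and 3.54% higher. The import genes called there were again 3 lower and 0 higher. The background share thus depends on the filter. At an unadjusted p under 0.05, 8 import genes were lower and 4 higher, 12 of 40 against 23.8% of all genes, and limma-voom on the recovered read pairs called 3 lower and 2 higher, *Tomm5* and *Tomm20*. That test called more genes in general, 7.02% of all genes lower, 5.1% higher and 12.1% in either direction.

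The fitted log2 fold changes of the 40 genes ran from -0.87 to 0.43, with a median of 0.04 beside -0.02 over all genes tested, and 19 of the 40 were below 0, beside 52.8% of all genes. They were measured tightly, with a median SE of 0.11 against 0.21 over all genes. The groups did not overlap in 17 of the 40, 10 lower and 7 higher, or 42.5% against 30.1% of all genes tested. Within that count, 10 of 40 stand beside 17.2% of all genes for lower values, and 7 of 40 beside 12.9% for higher values. Without *Timmdc1*, *Tomm34* and *Tomm6os*, 3 of 37 were called (8.11%).

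The calls rest on all 6 libraries together. Leaving out any 1 library ended the call for *Pmpca* (adjusted p from 0.0702 to 0.112, log2 fold change from -0.50 to -0.41) and for *Pmpcb* (0.0631 to 0.133, -0.76 to -0.59). For *Grpel2* the call held only without *Yy1* KD replicate 1 (log2 fold change -1.01, adjusted p = 0.0439), and without each of the other 5 libraries the adjusted p was between 0.0924 and 0.113 in limma. In these smaller fits 0.432% to 2.41% of all genes were called, and the direction of the 3 genes was the same in each.

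**Figure D1:**
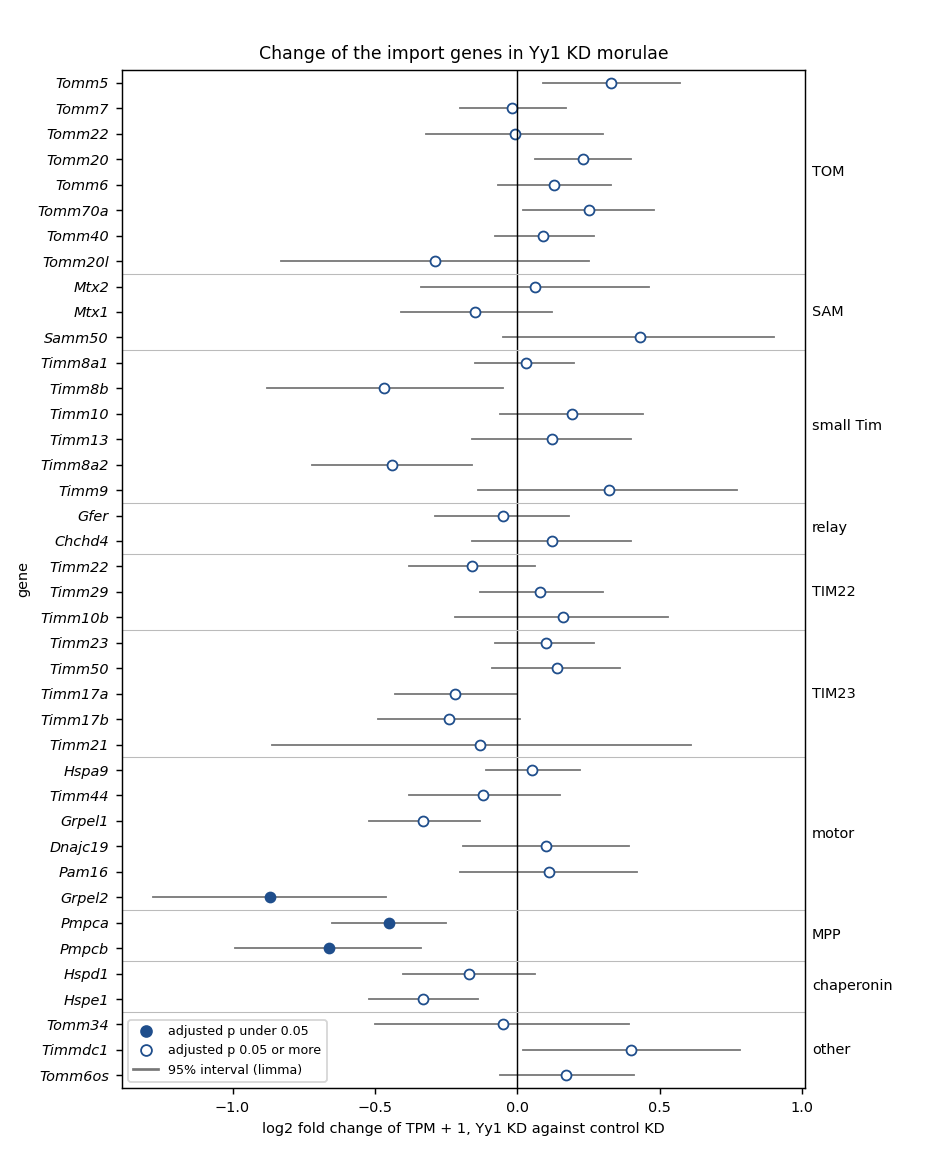
Log2 fold change (*Yy1* KD over control KD, on log2(TPM + 1)) of the 40 import genes tested, grouped by role, with the 95% interval from limma; filled points mark an adjusted p under 0.05. *Pmpca*, *Pmpcb* and *Grpel2* are the only filled points, and most of the other intervals include 0.

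*Pmpca* encodes the alpha subunit of the matrix processing peptidase, which binds the presequence. The gene (ENSMUSG00000026926.14) lies on the plus strand of chr2:26389339-26397122 in GRCm38, and 874 of its 4282 exonic nucleotides are shared with *Inpp5e* on the other strand, whose reads were not separated. Its level was 64.7, 74.0 and 70.4 TPM in control KD and 52.7, 48.0 and 51.6 TPM in *Yy1* KD. All 3 *Yy1* KD libraries lay below the lowest control library. The means were 69.7 ± 4.70 and 50.8 ± 2.43 (SD, n = 3), a log2 fold change of -0.45 (SE 0.09, 95% interval -0.65 to -0.25, limma adjusted p = 0.0339).

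*Pmpcb* encodes the catalytic beta subunit of the same enzyme. The gene (ENSMUSG00000029017.13, plus strand of chr5:21737141-21757152) shares no exonic sequence with another gene. It was measured at 27.9, 21.8 and 26.1 TPM in control KD and at 14.8, 14.3 and 17.7 TPM in *Yy1* KD. Again the groups did not overlap, and the highest *Yy1* KD library was replicate 3. The mean moved from 25.3 ± 3.13 to 15.6 ± 1.85 TPM (SD, n = 3), a log2 fold change of -0.66 (SE 0.14, 95% interval -0.99 to -0.34, limma adjusted p = 0.0423). Beside *Hspa9*, whose level did not pass the test, *Pmpca* amounted to 12.2%, 14.2% and 13.0% in control KD and 8.98%, 9.08% and 9.49% in *Yy1* KD. The share of *Pmpcb* against *Hspa9* was 5.25%, 4.17% and 4.81% in control KD and 2.52%, 2.69% and 3.26% in *Yy1* KD. Such ratios within a library do not depend on how libraries are scaled, and both were apart in the 2 groups (exact permutation p = 0.1 each, the smallest that 3 against 3 libraries can give). The ratio of *Pmpcb* to *Pmpca* itself overlapped, with 43.1%, 29.5% and 37.1% in control KD and 28.1%, 29.7% and 34.3% in *Yy1* KD (exact permutation p = 0.3).

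The promoters of this pair are shown because both genes fell, and the windows differ in base composition. Each window runs from 250 bases before to 50 bases from the annotated start on, in the RefSeq annotation of GRCm38.p6. Capitals mark the ETS-type motif CCGGAAGT and ATGGCGGC, here called the core form. The core form was chosen after the sequences had been seen and shares the letters ATGGC with the YY1 motif. The first is chr2:26389098-26389397 on the plus strand, with 80.3% GC and 55 CpG. The second is chr5:21736910-21737209 on the plus strand, with 53.7% GC and 11 CpG.
Pmpca: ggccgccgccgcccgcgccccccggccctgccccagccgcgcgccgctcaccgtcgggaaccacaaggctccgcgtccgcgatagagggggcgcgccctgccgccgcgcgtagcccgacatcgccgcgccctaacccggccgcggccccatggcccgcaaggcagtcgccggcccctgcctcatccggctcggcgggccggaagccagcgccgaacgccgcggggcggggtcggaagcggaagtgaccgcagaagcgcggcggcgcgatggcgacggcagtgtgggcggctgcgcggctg
Pmpcb: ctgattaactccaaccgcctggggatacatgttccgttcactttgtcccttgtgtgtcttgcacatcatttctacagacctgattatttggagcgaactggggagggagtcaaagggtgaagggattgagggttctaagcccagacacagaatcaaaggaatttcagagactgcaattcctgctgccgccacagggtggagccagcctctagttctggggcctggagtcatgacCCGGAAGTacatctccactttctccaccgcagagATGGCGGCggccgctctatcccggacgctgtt
The *Pmpca* window held none of the motifs searched, on either strand. In the *Pmpcb* window the YY1 motif itself, GCCATNTT or AANATGGC, was absent. The ETS-type match in *Pmpcb* began 16 bases before the start and the core form at base 19 of the transcript, counted from 1 at the start site.

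*Grpel2* and *Grpel1* encode the mitochondrial nucleotide exchange factors, GrpE-like proteins that release ADP from mtHsp70 so that the motor can take another stroke. *Grpel2* (ENSMUSG00000024580.8, minus strand of chromosome 18, no shared exonic sequence) stood at 9.06, 9.64 and 8.74 TPM in control KD and at 5.71, 4.13 and 3.97 TPM in *Yy1* KD. It was lower in all 3 *Yy1* KD libraries, with replicate 1 the nearest to the controls, and it rested on 133 to 673 read pairs per library. The mean went from 9.15 ± 0.456 to 4.6 ± 0.963 TPM (SD, n = 3), the largest change among the 40 genes (log2 fold change -0.87, SE 0.17, 95% interval -1.28 to -0.46, limma adjusted p = 0.0376).

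*Grpel1*, the more abundant paralog, was at 64.5, 71.1 and 62.3 TPM in control KD and at 53.4, 50.8 and 52.9 TPM in *Yy1* KD. The groups were apart here too, but the test was not passed (log2 fold change -0.33, SE 0.08, 95% interval -0.52 to -0.13, limma adjusted p = 0.0669). The gene shares 411 exonic nucleotides with *Tada2b* on the other strand. *Grpel2* made up 12.3%, 11.9% and 12.3% of the summed exchange factor transcripts in control KD and 9.67%, 7.52% and 6.98% in *Yy1* KD, so the share of the minor paralog was lower in every *Yy1* KD library (exact permutation p = 0.1).

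*Hspa9*, the chaperone that these factors serve and the most abundant gene of the motor, was at 531.4, 522.6 and 543.2 TPM in control KD and at 586.6, 529.2 and 543.4 TPM in *Yy1* KD. The groups overlapped, and the interval of the log2 fold change ran from -0.11 to 0.22 around 0.05 (limma adjusted p = 0.685). Both exchange factors together came to 13.8%, 15.5% and 13.1% of *Hspa9* in control KD and to 10.1%, 10.4% and 10.5% in *Yy1* KD, without overlap (exact permutation p = 0.1). The other motor genes were *Timm44*, which tethers mtHsp70 to the channel, and *Dnajc19* and *Pam16*, a J-protein and its regulator. None of these 3 passed the test, with log2 fold changes of -0.12, 0.10 and 0.11 and overlapping groups.

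**Figure D2:**
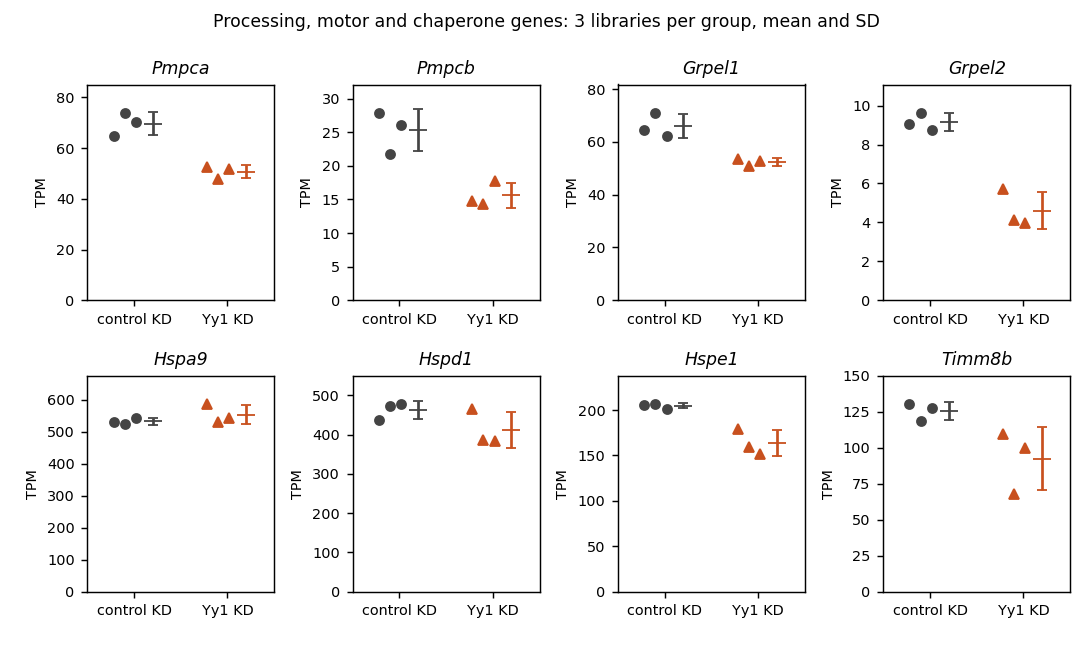
TPM per library (points) with the mean and SD over 3 libraries (bars) in control KD and *Yy1* KD for *Pmpca*, *Pmpcb*, *Grpel1*, *Grpel2*, *Hspa9*, *Hspd1*, *Hspe1* and *Timm8b*, each panel starting at 0. The groups are apart in all of these but *Hspa9* and *Hspd1*.

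The chaperonin genes *Hspd1* and *Hspe1* lie head to head on chromosome 1 and share 112 exonic nucleotides at their starts. *Hspe1*, the lid, was measured at 205.9, 206.8 and 201.6 TPM in control KD and at 179.3, 159.1 and 151.6 TPM in *Yy1* KD. The control libraries lay close together and all *Yy1* KD libraries lay below them, but the test was not passed (log2 fold change -0.33, SE 0.08, 95% interval -0.52 to -0.14, limma adjusted p = 0.0637). *Hspd1*, the barrel, was at 436.3, 473.1 and 478.0 TPM in control KD and at 465.1, 387.0 and 384.7 TPM in *Yy1* KD, where replicate 1 stood within the control range (log2 fold change -0.17, 95% interval -0.40 to 0.06, adjusted p = 0.334). *Hspe1* as a share of *Hspd1* was 47.2%, 43.7% and 42.2% in control KD and 38.5%, 41.1% and 39.4% in *Yy1* KD, without overlap (exact permutation p = 0.1). Both genes have processed copies in the genome whose reads can be mistaken for theirs. Of 13 copies of *Hspd1*, *Hspe1* and *Hspa9* in the table, 5 were tested and 0 were called by limma, none at an unadjusted p under 0.05. The most abundant, *Hspd1-ps3*, had a mean of 33.8 TPM in control KD.

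The TOM complex is the common gate of the outer membrane, and 0 of its 8 tested genes were called by limma on TPM. All 4 of its genes whose groups did not overlap were higher in *Yy1* KD, beside 12.9% of all genes higher without overlap. An unadjusted p under 0.05 was reached by 3 of the 8, all higher. Beside them, 1623 of the 17353 genes tested were higher with such a p, and 23.8% had such a p in either direction. *Tomm5*, a small subunit and the most abundant of them, was at 446.9, 500.6 and 412.0 TPM in control KD and at 514.0, 584.7 and 609.5 TPM in *Yy1* KD. Every *Yy1* KD library was above every control library, with a log2 fold change of 0.33 (SE 0.10, 95% interval 0.09 to 0.57, limma adjusted p = 0.111), and it was called by limma-voom (0.35, adjusted p = 0.0491). *Tomm20*, a receptor for presequences, was at 143.5, 131.4 and 137.0 TPM in control KD and at 167.0, 162.3 and 154.3 TPM in *Yy1* KD. It did not pass the test on TPM (log2 fold change 0.23, SE 0.07, adjusted p = 0.108) and did with limma-voom on the recovered read pairs (0.28, adjusted p = 0.037). *Tomm70a*, the receptor that takes carriers from cytosolic chaperones, was at 76.2, 81.4 and 83.1 TPM in control KD and 108.3, 89.3 and 90.7 TPM in *Yy1* KD. *Tomm40*, the channel itself, was at 54.8, 57.5 and 54.8 TPM in control KD and at 62.4, 58.2 and 57.9 TPM in *Yy1* KD. The groups of both genes were apart, for *Tomm40* only just. The log2 fold changes were 0.25 for *Tomm70a* (adjusted p = 0.173) and 0.09 for *Tomm40* (adjusted p = 0.496).

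*Tomm22*, the central receptor, and *Tomm7* and *Tomm6*, small subunits that set the stability of the complex, overlapped between groups. Their log2 fold changes were -0.01, -0.02 and 0.13, and the mean of *Tomm7* was 293.8 TPM in the control libraries and 290.3 TPM after knockdown. Of the 1131 exonic nucleotides of *Tomm6*, 952 are shared with other genes, among them *Tomm6os*, so strand-blind reads of these cannot be told apart. *Tomm6os* itself was listed at 20.2, 21.9 and 19.4 TPM in control KD and at 22.4, 22.7 and 24.7 TPM in *Yy1* KD, a log2 fold change of 0.17 (adjusted p = 0.35). The paralogs of the channel and of the receptor were scarce. *Tomm20l* lay between 3.50 and 6.89 TPM on 15.5 to 37.0 read pairs per library, and *Tomm40l* between 0 and 0.248 TPM, under the filter, with most of its exons shared with *Nr1i3*.

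**Figure D3:**
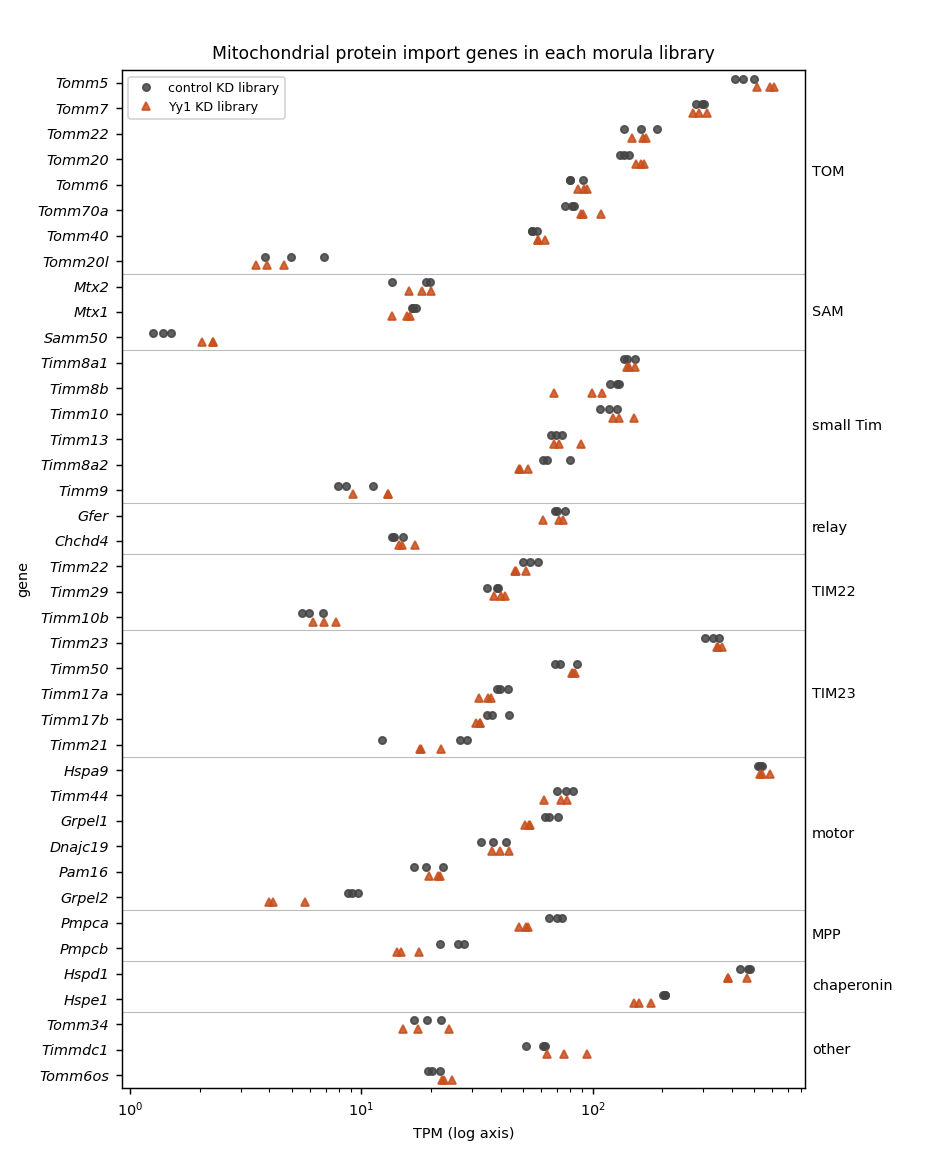
TPM (log axis) of each of the 40 import genes tested in the 3 control KD and 3 *Yy1* KD libraries, grouped by role and ordered by level. The levels span from *Samm50* at 1.25 to 2.28 TPM to *Tomm5* and *Hspa9* above 400 TPM.

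The SAM complex inserts barrel proteins into the outer membrane, and its 3 genes had low means, from 1.38 to 17.5 TPM in control KD, with 0 called by limma and 0 at an unadjusted p under 0.05. *Samm50*, the core of the complex, was listed at 1.39, 1.5 and 1.25 TPM in control KD and at 2.04, 2.28 and 2.28 TPM in *Yy1* KD. The groups were apart at this low level, which rested on 47 to 103.3 read pairs per library, and the fold change had a wide interval (log2 0.43, SE 0.20, -0.05 to 0.90, limma adjusted p = 0.253). The *Yy1* KD mean was 159.7% of control, more than the log2 fold change of TPM + 1 shows. With a pseudocount of 0.1 the log2 fold change was 0.64 and with limma-voom 0.69, and *Samm50* was uncalled in both. *Mtx1* and *Mtx2*, the metaxins on its cytosolic face, were more abundant than *Samm50*. *Mtx1* was lower without overlap by a small step, at 17.2, 16.8 and 16.6 TPM against 15.7, 13.6 and 16.2 TPM (log2 fold change -0.15, adjusted p = 0.474). *Mtx2*, at 13.6, 19.1 and 19.8 TPM against 20, 18.2 and 16.1 TPM, overlapped.

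The small Tim proteins carry hydrophobic precursors across the intermembrane space as hexamers of TIMM9 with TIMM10, or of TIMM8 with TIMM13. Of the 6 genes 0 were called by limma and 2, both of the TIMM8 kind, had an unadjusted p under 0.05. *Timm8b* was at 130.5, 118.9 and 127.6 TPM in control KD and at 109.8, 68.1 and 99.6 TPM in *Yy1* KD, lower in every library but spread widely in *Yy1* KD, where replicate 2 was lowest (log2 fold change -0.47, SE 0.17, 95% interval -0.88 to -0.05, limma adjusted p = 0.163). Without that library the log2 fold change was -0.26. *Timm8a2* was at 63.3, 80.2 and 61.1 TPM in control KD and at 52.6, 48.0 and 48.4 TPM in *Yy1* KD, also without overlap (-0.44, SE 0.12, -0.72 to -0.16, adjusted p = 0.0817). *Timm8a1*, the paralog on the X chromosome and the most abundant of the 6, stood at 152.5, 141.4 and 136.5 TPM in control KD and at 152.1, 141.3 and 144.5 TPM in *Yy1* KD, overlapping between groups (log2 fold change 0.03, 95% interval -0.15 to 0.20, adjusted p = 0.873). Whether the paralogs differ in their response was not tested. As a percent of its partner *Timm13*, *Timm8b* came to 198.4%, 170.4% and 172.8% in control KD and to 122.5%, 95.5% and 145.7% in *Yy1* KD (exact permutation p = 0.1).

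The partners *Timm9* and *Timm10*, which work in equal numbers in the hexamer, were far apart in transcript level. *Timm9* amounted to 9.46%, 6.74% and 7.36% of *Timm10* in control KD and to 8.66%, 7.55% and 9.97% in *Yy1* KD, overlapping between groups (exact permutation p = 0.4). The gap is one of TPM per annotated exon length, which is 4282 nucleotides for *Timm9* and 815 for *Timm10*. Neither gene passed the test. The disulfide relay that traps these small proteins consists of *Chchd4*, the oxidoreductase, and *Gfer*, which reoxidizes it. *Gfer* was at 76.1, 68.5 and 70.1 TPM in control KD and at 71.8, 74.6 and 61.1 TPM in *Yy1* KD, and *Chchd4* had means of 14.2 and 15.5 TPM. Both overlapped, with log2 fold changes of -0.05 and 0.12.

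TIM23 is the presequence translocase, and of its 5 genes 0 were called by limma and 1, *Timm17a*, had an unadjusted p under 0.05. *Timm23*, the channel subunit, was at 306.1, 351.7 and 331.7 TPM in control KD and at 362.6, 348.0 and 345.6 TPM in *Yy1* KD, overlapping between groups (log2 fold change 0.10, 95% interval -0.08 to 0.27, limma adjusted p = 0.489). *Timm17a* and *Timm17b* encode alternative forms of its partner subunit. *Timm17a* was at 42.9, 38.8 and 39.9 TPM in control KD and at 35.4, 36.5 and 32.4 TPM in *Yy1* KD, and *Timm17b* at 34.8, 36.8 and 43.3 TPM and at 31.2, 32.6 and 32.7 TPM. Both were lower in every *Yy1* KD library without passing the test (log2 fold changes -0.22 and -0.24, adjusted p = 0.203 and 0.226). The balance of the pair overlapped, with *Timm17b* at 44.8%, 48.7% and 52.1% of the pair in control KD and at 46.9%, 47.2% and 50.2% in *Yy1* KD (exact permutation p = 1.0). *Timm50*, the presequence receptor, and *Timm21*, which bridges to TOM, overlapped. In *Timm21* control KD replicate 2 stood low, at 12.3 TPM beside 26.8 and 28.7 TPM, and the interval was correspondingly wide (-0.86 to 0.61).

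The carrier translocase TIM22 showed no call among its 3 genes, with 0 at an unadjusted p under 0.05 in limma. *Timm22*, its channel, was at 53.5, 58.2 and 50 TPM in control KD and at 51.4, 46.6 and 46.4 TPM in *Yy1* KD (log2 fold change -0.16, 95% interval -0.38 to 0.06, adjusted p = 0.348). *Timm29* and *Timm10b*, which hold the channel and the small chaperones together, had log2 fold changes of 0.08 and 0.16. The pair of genes outside import proper also stayed uncalled. *Timmdc1* was at 51.3, 60.9 and 62.0 TPM in control KD and at 94.8, 74.9 and 63.4 TPM in *Yy1* KD, where replicate 1 stood high and replicate 3 just above the controls (log2 fold change 0.40, SE 0.16, 95% interval 0.02 to 0.78, limma adjusted p = 0.183). Without *Yy1* KD replicate 1 the log2 fold change was 0.25. *Tomm34*, at 16.9, 19.3 and 22.2 TPM against 17.6, 15.2 and 24.0 TPM, overlapped.

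Promoter windows were found in RefSeq for 36 of the 41 genes and not for *Hspa9*, *Grpel2*, *Timm21*, *Tomm7* and *Tomm40l*. The YY1 motif was searched as GCCATNTT or AANATGGC to cover both strands, and a gene was counted if any of its windows held it. It was present in 4 of the 36 genes (11.1%). Of the 17353 genes tested, 9767 had a window, and 10.4% of these held the motif. Over all 27025 genes with a window the share was 6.96%. The 4 genes, *Mtx1*, *Samm50*, *Timm44* and *Timm50*, are shown with 30 bases around the match, in capitals, because the same letters recur at nearly the same place just inside the transcript.
Mtx1: agagagcgtacAAGATGGCggcgcccatgg
Samm50: ctaggtggtacAACATGGCggcgctcggca
Timm44: cgggctcttccAACATGGCggcggcagctc
Timm50: ggcgtcagcgcAAGATGGCggcctcggcgg
The windows are chr3:89213878-89213907 (minus strand), chr15:84192238-84192267 (plus), chr8:4275872-4275901 (minus) and chr7:28312017-28312046 (minus). The match begins at base 12, 10, 16 and 12 of the transcript, in that order. None of these 4 genes was called, and they differed in direction, with log2 fold changes of -0.15, 0.43, -0.12 and 0.14.

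A second form, ATGGCGGC or GCCGCCAT, was searched after the sequences had been seen and shares the letters ATGGC with the YY1 motif. It was present in 6 of the 36 genes (16.7%, against 5.72% of tested genes with a window), namely the same 4, *Pmpcb* and *Grpel1*. Because the form was searched after these sequences had been seen, the 16.7% cannot be read as an excess. In *Grpel1* the form begins at base 10 of the transcript, and the NRF1-type motif GCGCATGC lies 36 bases before the start. Of the 6 genes, *Grpel1*, *Pmpcb* and *Mtx1* were lower without overlap, *Samm50* was higher without overlap, and *Timm44* and *Timm50* overlapped. Over all genes tested, 17.2% were lower and 12.9% higher without overlap. *Pmpca*, *Hspe1*, *Timm8b*, *Timm8a2*, *Timm17a* and *Timm17b* were also lower without overlap and held no such form. Whether the form goes with the change was not tested. The *Grpel1* and *Pmpcb* sites are shown to complete the 6.
Grpel1 (core): cgggggcagtcATGGCGGCtcggtgtgtga
Grpel1 (NRF1-type): aaggggcgtccGCGCATGCtcagtgtgggc
Pmpcb (core): ccaccgcagagATGGCGGCggccgctctat
These windows are chr5:36465183-36465212, chr5:36465138-36465167 and chr5:21737167-21737196, all on the plus strand. The NRF1-type motif, GCATGCGC or GCGCATGC, was in 2 of 36 genes (5.56%, against 6.01%), and the ETS-type motif, CCGGAAGT or ACTTCCGG, in 9 of 36 (25%, against 9.48%). Only the search for the YY1 motif was planned, so the 25% cannot be read as an excess either. A match describes the letters of a window, and binding was not measured.

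Other genes of import and mitochondrial protein quality control, which the symbols above do not cover, were read from the same fit. Of 40 such genes 39 were tested, 2 were called higher and 1 lower, with a median log2 fold change of 0.03. The 7.69% called stands beside 6.11% of all genes tested. Among genes with a mean of 5 TPM or more the background was 11.4%, and this list again had 2 called higher and 1 lower. *Bcs1l*, an inner membrane AAA protein that moves the folded Rieske protein of complex III, was at 8.15, 6.54 and 6.36 TPM in control KD and at 19.4, 12.7 and 14.4 TPM in *Yy1* KD, and was upregulated (log2 fold change 1.03, SE 0.19, limma adjusted p = 0.0315). *Mtx3*, the minor metaxin, was at 2.66, 2.77 and 2.79 TPM in control KD and at 0.702, 1.08 and 0.963 TPM in *Yy1* KD, and was downregulated (-0.97, SE 0.21, adjusted p = 0.046). Its mean fell to 33.4% of control, more than the log2 fold change of TPM + 1 shows at this low level. The *Mtx3* call ended with a pseudocount of 0.1. *Dnaja2*, a cytosolic J-protein that helps keep precursors unfolded, was at 267.5, 248.2 and 248.7 TPM in control KD and at 313.8, 321.9 and 309.0 TPM in *Yy1* KD, and was upregulated (0.31, SE 0.06, adjusted p = 0.0448). Leaving out any 1 library ended all 3 of these calls. Among nuclear genes for other mitochondrial functions, 12 of the 38 tested *Nduf* genes of complex I were called (31.6%, 11 lower), 7 of 78 mitochondrial ribosomal protein genes (8.97%, 6 lower) and 1 of 38 *Slc25* carrier genes (2.63%, lower). The import genes, at 7.5%, lay between the carriers and the ribosomal proteins, and the difference between these lists was not tested.

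**Figure D4:**
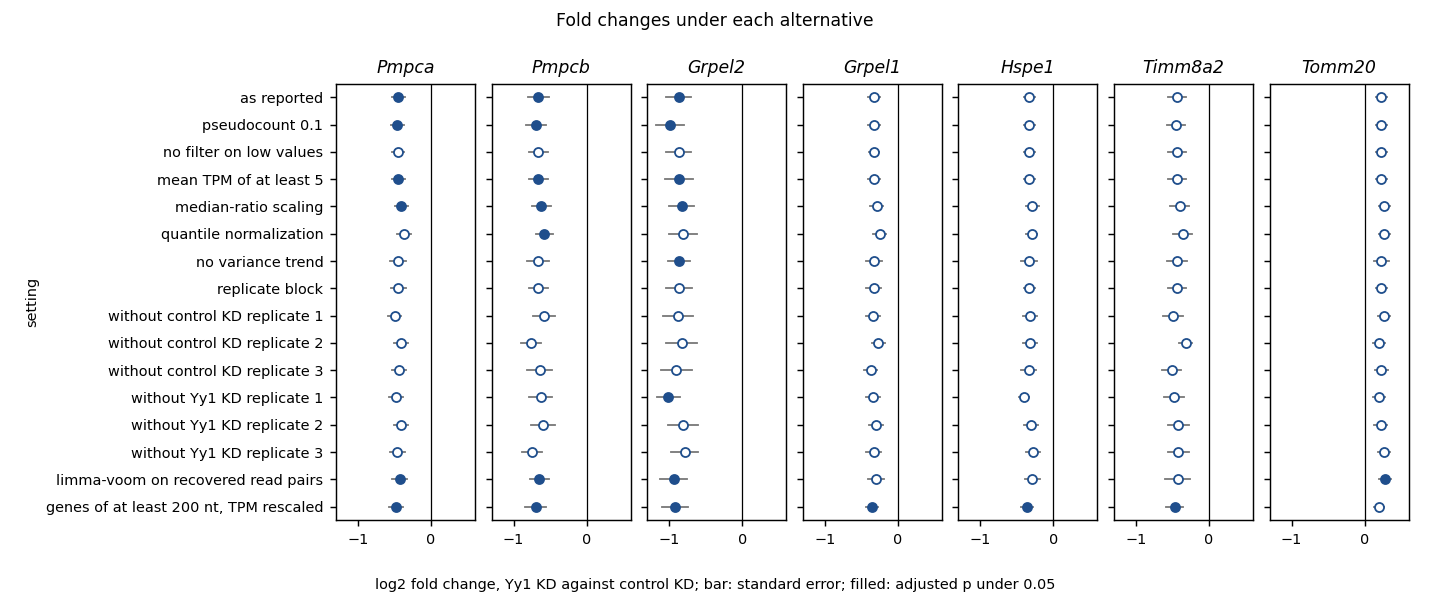
Log2 fold change with its SE for *Pmpca*, *Pmpcb*, *Grpel2*, *Grpel1*, *Hspe1*, *Timm8a2* and *Tomm20* as reported and under each of the 15 alternatives; filled points mark an adjusted p under 0.05. Each gene keeps its sign in every setting, and *Grpel2* lies between -1.01 and -0.79.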

How the data were processed

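RNA was measured in 3 control KD and 3 *Yy1* KD libraries with a stranded SMART-Seq kit and paired reads of 150 nt, and libraries were grouped by their labels. The authors trimmed reads with Trim Galore (version 0.6.7), aligned them to mm10 with HISAT2 (2.2.1), removed ribosomal RNA reads with bedtools, assigned pairs to GENCODE vM25 genes with featureCounts (2.0.1; strand ignored, pairs on several genes divided) and deposited TPM per gene and library; 0 columns were left unused. TPM suits no count model, so log2(TPM + 1) was modelled with limma (3.58.1, R 4.3.3), using a variance trend and no block, in place of the edgeR test of the authors. Genes reaching 1 TPM in 3 or more of the 6 libraries entered. Errors are SD over libraries or SE from limma, and tests are two-sided.

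Read pairs were recovered from TPM and the exon length of GENCODE vM21, in which 98.1% of the genes have the same version. Of the low values in genes without overlap, 89.03% to 90.82% were whole within 0.01. With overlapping genes included, 80.7% to 81.5% of the low values were whole. The total was 11.8 to 24.4 M pairs (M, 1000000) per library. Limma-voom on these pairs (median-ratio scaling), and TPM rescaled over genes of 200 nt or more, were alternatives chosen after seeing the data. The others were a pseudocount of 0.1, other filters, median-ratio and quantile scaling, no trend, dropping each library in turn and a block for the replicate number. The limma fit was tested on simulated data. Python tables and figures used pandas 2.3.3, scipy 1.17.1 and matplotlib 3.10.9.

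The members and lists were chosen with earlier results of these data known. Library values are given for called members, the 5 uncalled members with the largest change, the most abundant member of each role and paralog pairs; those of *Tomm20*, *Tomm70a*, *Tomm40*, *Mtx1*, *Tomm34* and the ratios between genes were added after their values were seen.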

Additional observations from a re-analysis of the deposited data

How the results depend on the processing

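Of the 40 import genes tested, 32 kept the sign of their log2 fold change in every alternative in which they were fitted. There were 15 alternatives, 13 planned and 2 added after seeing the data, and *Samm50* and *Tomm20l* were fitted in 14 of them and *Mtx1* in 13. Import genes called lower numbered 3; they were 0 without a filter on low values, 1 with quantile normalization (*Pmpcb*), 1 without the variance trend (*Grpel2*), 6 among genes of at least 200 nt (with *Hspe1*, *Grpel1* and *Timm8a2*) and 0 to 1 when 1 library was left out. Import genes called higher numbered 0, and 2 with limma-voom. Over all genes, 333 were called higher and 728 lower (68.6% lower); the counts were 77 and 270 without a filter, 132 and 382 without the trend, 863 and 1188 with limma-voom (57.9% lower), 388 and 548 with quantile normalization (58.5% lower), and 22 to 92 and 53 to 326 when 1 library was left out. In the list of other import and quality genes, 2 called higher became 0 without a filter or the trend, 8 with limma-voom and 0 to 0 without 1 library; 1 called lower became 0 with a pseudocount of 0.1, without a filter or with median-ratio scaling, 2 with limma-voom, 2 among genes of at least 200 nt and 0 to 0 without 1 library. The median of the import genes stayed between 0.00 and 0.08. The cause of these differences was not tested.

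With the replicate number as a block, 0 import genes were called lower, 69 genes were called higher and 218 lower over all genes, and the other list had 0 called higher and 0 lower. The values do not settle whether the numbers pair the libraries. Deviations of same-numbered libraries correlated at -0.004, 0.032 and 0.075, and those of other pairs between -0.071 and 0.041. Control KD replicates 2 and 3 correlated best with the *Yy1* KD library of the same number. Control KD replicate 1 correlated best with *Yy1* KD replicate 2 (0.041).

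The 8 genes that changed sign were uncalled, with a main log2 fold change of at most 0.13 in size. With quantile normalization *Tomm34* was 0.04, *Tomm22* 0.02, *Gfer* 0.01 and *Hspa9* -0.03; with median-ratio scaling *Tomm7* was 0.02 and *Tomm22* 0.03; with limma-voom *Tomm7* was 0.02 and *Tomm22* 0.02; among genes of at least 200 nt *Timm8a1* was 0.00. Leaving out 1 library gave ranges of -0.10 to 0.15 for *Mtx2*, -0.23 to 0.08 for *Tomm34*, -0.07 to 0.03 for *Tomm7*, -0.13 to 0.11 for *Tomm22*, -0.11 to 0.03 for *Gfer*, 0.01 to 0.08 for *Hspa9*, -0.50 to 0.08 for *Timm21* and -0.01 to 0.07 for *Timm8a1*. Depth limits *Tomm20l*, with 15.5 to 37.0 read pairs per library, and *Samm50*, with 47 to 103.3.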

Other observations

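The cytosolic chaperones that keep precursors soluble before import were high and all 5 had a fitted log2 fold change above 0, from 0.12 to 0.33, with 1 called (*Dnaja2*, a call that ended when any 1 library was left out). Over all genes tested 52.8% were fitted below 0, 6.11% were called and 12.9% were higher without overlap. *Hspa8*, the constitutive Hsp70, was at 4857.9, 5892.9 and 6011.9 TPM in control KD and at 8068.0, 6202.9 and 6894.3 TPM in *Yy1* KD, without overlap (limma log2 fold change 0.33, SE 0.14, adjusted p = 0.203). *Hsp90ab1* was at 7787.8, 8147.1 and 7949.0 TPM in control KD and at 9624.5, 9042.0 and 8704.4 TPM in *Yy1* KD, also without overlap (0.20, adjusted p = 0.257). *Dnaja1* had means of 613.3 ± 8.52 and 668.0 ± 16.1 TPM (SD, n = 3; 0.12, adjusted p = 0.281).

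Proteases and membrane organizers of mitochondria gave no call. Of the 8 genes of the MICOS complex, which shapes the cristae, 0 were called by limma and 0 had an unadjusted p under 0.05. Of the 13 protein quality control genes 0 were called and 3 had an unadjusted p under 0.05, beside 23.8% of all genes. *Clpx*, the unfoldase of the matrix ClpXP protease, was at 270.9, 264.6 and 246.8 TPM in control KD and at 289.9, 333.0 and 334.6 TPM in *Yy1* KD (log2 fold change 0.29, adjusted p = 0.0951). *Atad1*, which extracts misplaced proteins from the outer membrane, was at 15.0, 13.9 and 17.0 TPM in control KD and at 10.8, 10.4 and 10.7 TPM in *Yy1* KD (-0.48, adjusted p = 0.0667). *Htra2*, a protease of the intermembrane space, had means of 14.7 ± 2.07 and 10.4 ± 0.872 TPM (SD, n = 3; limma adjusted p = 0.113). Of the further processing peptidases, *Xpnpep3* stood at 22.0, 20.6 and 17.9 TPM in control KD and at 25.3, 26.7 and 28.1 TPM in *Yy1* KD (0.39, adjusted p = 0.0903). *Immp1l*, also a processing peptidase, had means of 8.55 ± 3.53 and 5.42 ± 1.38 TPM (SD, n = 3; limma log2 fold change -0.53, adjusted p = 0.331), and none of the 3 tested further peptidases was called. These genes were picked out after their values were seen.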
